A study of Mus musculus with 15 samples.

Results

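The monoamine genes described here are 10 of the 38283 genes in the deposited expression table. They were chosen by symbol, as genes that make, store, break down or sense serotonin and the catecholamines: Tph1, Tph2, Th, Ddc, Maoa, Maob, Slc18a1, Slc18a2, Drd2 and Htr2b. The study asked how the hormone-secreting cells of the mouse pancreatic islet differ in the genes they transcribe. Alpha cells (n = 5 samples) and beta cells (n = 4) were sorted from islets of Glu-Venus mice, in which the proglucagon promoter drives the fluorescent protein Venus. Delta cells (n = 6) were sorted from Sst-CreXROSA26EYFP/EYFP mice, in which Cre under the somatostatin promoter switches on EYFP. All mice were on the C57BL/6 strain, no age or treatment was given in the labels, and each sample pooled the islets of several mice.

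Serotonin is made from tryptophan by tryptophan hydroxylase (Tph1 or Tph2) and then by aromatic amino acid decarboxylase (Ddc). Dopamine is made from tyrosine by tyrosine hydroxylase (Th) and the same decarboxylase. The vesicular transporters Slc18a1 and Slc18a2 load monoamines into secretory granules, and the monoamine oxidases Maoa and Maob break them down. Islet endocrine cells have long been known to take up and decarboxylate amine precursors, and beta cells raise serotonin synthesis in pregnancy.

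Levels are FPKM, read fragments scaled to transcript length and to the mapped reads of the sample, so genes can be set beside each other per unit of length. The samples matched their labels in the hormone genes. Gcg in beta and delta cells was at 0.233% and 0.189% of its alpha cell mean, Sst in alpha and beta cells at 0.992% and 0.101% of its delta cell mean, and Ins2 in alpha and delta cells at 1.87% and 1.95% of its beta cell mean. Ppy, the pancreatic polypeptide gene, stood at 17728 to 41392 FPKM in alpha cells and at 10857 to 48600 FPKM in delta cells, against at most 98.1 FPKM in beta cells. Single-read steps could be resolved in 6 samples and correspond to 7.45 to 30.7 M reads, and the depth of the other 9 samples, all 4 beta cell samples among them, is unknown. Beta sample 2 stood apart from the other beta cell samples. Its median-ratio size factor, a measure of the overall scale of a sample, was 1.714 against 0.4575 to 1.037, and results that move strongly with it are given with and without it. In beta sample 2 the 86 ribosomal protein genes summed to 76976 FPKM, against 8183 to 14107 FPKM in the other beta cell samples. Sums above 50000 FPKM also occurred in alpha samples 1 to 3 and in delta samples 1 and 2, and not in the other samples. Delta cells came from a mouse line of their own, so that line and cell type cannot be told apart for them. Beta cells were the Venus-negative cells of the same sorts as alpha cells, picked by scatter and autofluorescence.

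The upstream sequences of Th and Ddc are shown because these are the members with the largest differences among those whose promoters were matched. Of the 10 members, 8 matched the RefSeq promoter table (GRCm38.p6). In the 250 bases before each RefSeq transcript start, 5 motifs were searched on both strands: TGACGTCA (cAMP response element, found in 1.55% of 32851 promoters), CTAATG (a homeobox core, 6.36%), TGTTTAC (forkhead, 3.17%), CCGGAA (ETS family, 12.0%) and the HNF1 site (0.0609%). Matches occurred in the Th promoter and in both Ddc promoters, and capitals mark them. The Th promoter lies at chr7:142899996-142900245 on the minus strand. It holds CTAATG with its first base at position -168 and TGACGTCA at position -45, counted from that transcript start, which lies inside the longer gene model of Th given below. The Ddc promoters lie at chr11:11890409-11890658 and chr11:11898145-11898394 on the minus strand. Each holds CTAATG on the opposite strand to the gene, read here as CATTAG, at positions -237 and -183.
Th: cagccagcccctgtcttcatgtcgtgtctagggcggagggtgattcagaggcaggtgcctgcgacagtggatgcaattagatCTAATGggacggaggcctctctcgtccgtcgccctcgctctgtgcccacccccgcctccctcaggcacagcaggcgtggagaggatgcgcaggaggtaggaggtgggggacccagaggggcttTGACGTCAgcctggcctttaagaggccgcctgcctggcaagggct
Ddc promoter 1: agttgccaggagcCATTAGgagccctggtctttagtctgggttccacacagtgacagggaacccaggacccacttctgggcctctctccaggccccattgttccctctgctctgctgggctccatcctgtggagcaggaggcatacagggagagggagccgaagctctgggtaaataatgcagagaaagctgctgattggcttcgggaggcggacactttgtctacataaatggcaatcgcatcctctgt
Ddc promoter 2: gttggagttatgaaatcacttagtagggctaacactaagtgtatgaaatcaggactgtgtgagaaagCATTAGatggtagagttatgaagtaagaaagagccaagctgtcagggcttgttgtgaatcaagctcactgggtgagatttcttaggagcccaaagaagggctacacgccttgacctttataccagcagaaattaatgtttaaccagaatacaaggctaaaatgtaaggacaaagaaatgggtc
A match is a run of letters and not a measured binding site. FPKM was given per gene, so the Ddc promoters cannot be told apart by the levels below.

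Among the members, Ddc and Maob were abundant in alpha and beta cells and low in delta cells, Th was read mainly in beta cells and at a lower level in delta cells, and the other members stood at low levels. Differences are of mean log2(FPKM + 1) with their standard error (SE), from limma fitted to all 15 samples, and a call is an adjusted p under 0.05 over 14405 genes with a mean above 1 FPKM in at least 1 cell type. Of the 10 members, 6 entered the test (Tph2, Th, Ddc, Maoa, Maob and Slc18a1), Tph2 only through its delta cell mean. In beta against alpha cells 1 of the 6 was called, Th, which was higher, where 7.66% of all genes tested were called (2.84% higher and 4.82% lower). In delta against alpha cells 3 of 6 were called, Th higher and Ddc and Maob lower, against 6.81% of genes (5.33% higher and 1.48% lower). In delta against beta cells 4 of 6 were called, Th, Ddc, Maob and Slc18a1, all lower in delta cells, against 14.7% of genes (11.7% higher and 2.99% lower). The F-test across the 3 cell types called Th, Ddc and Maob, against 16.0% of genes. The samples of the compared cell types did not overlap for 1 of the 6 members tested in beta against alpha cells (8.12% of genes), 4 for delta and alpha cells (6.64%) and 3 for delta and beta cells (14.9%). The comparisons share samples and so are not independent of each other.

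**Figure D1:**
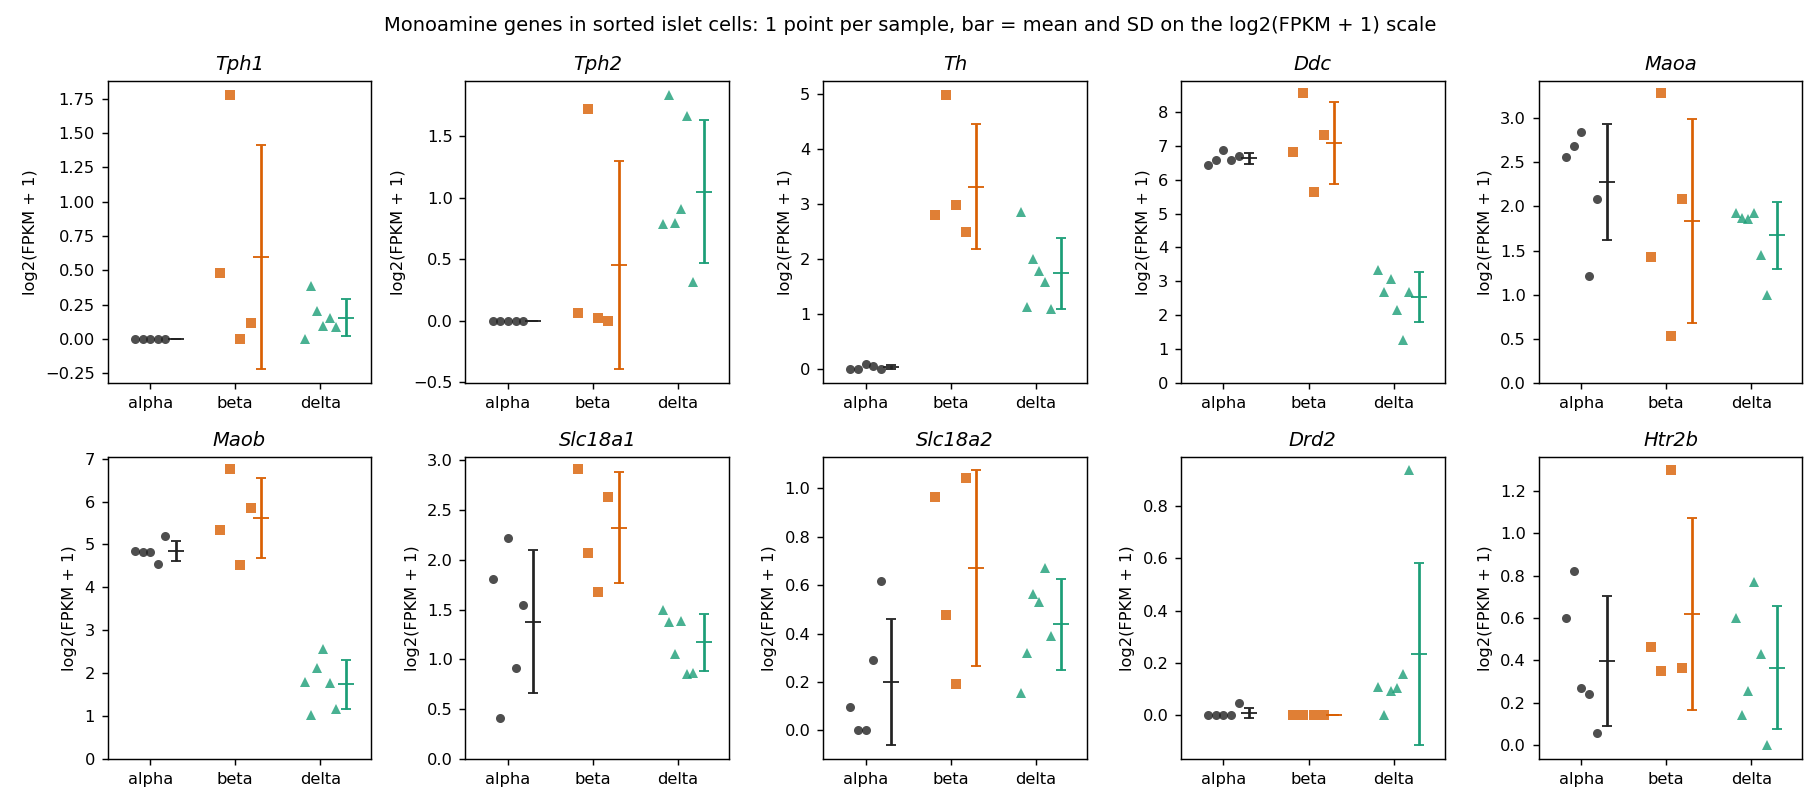
Expression of the 10 monoamine genes, with log2(FPKM + 1) on the vertical axis, 1 point per sample for alpha (n = 5), beta (n = 4) and delta cells (n = 6), and bars for the mean and SD. Ddc and Maob in the 6 delta cell samples lie below all alpha and beta cell samples, while Th is near 0 in alpha cells alone.

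The first enzymes of serotonin synthesis were at or near 0 in most samples. Tph1 (chromosome 7, 46644641 to 46672537, minus strand), the tryptophan hydroxylase of peripheral tissues, was listed at 0 in all 5 alpha cell samples. In beta cells it was at 0.397, 2.43, 0 and 0.0822 FPKM in samples 1 to 4. In delta cells it ranged from 0 through a median of 0.0899 to 0.309 FPKM. The 3 groups overlapped, and only beta sample 2 was above 1 FPKM. Without that sample the beta cell mean fell from 0.728 ± 1.15 (SD, n = 4) to 0.160 ± 0.210 FPKM (SD, n = 3). Tph1 did not enter the main test. With no filter on low values no limma comparison called it (adjusted p = 0.27 in beta against alpha, 0.822 in delta against alpha and 0.356 in delta against beta cells). Where the depth was resolved, 3 reads of Tph1 would stand at about 0.0923 FPKM in alpha sample 2 and 0.0263 FPKM in alpha sample 5. A single read would stand at about 0.0308 and 0.00875 FPKM. A listed 0 in these samples does not exclude levels near or below such floors. These floors cover counting error only and use the length of the longest transcript.

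Tph2 (chromosome 10, 115078641 to 115185022, minus strand), the tryptophan hydroxylase of serotonin neurons, had values in every delta cell sample. It was listed at 0 in all 5 alpha cell samples. In beta cells it was at 0.0430, 2.30, 0.0162 and 0 FPKM, and in delta cells it ranged from 0.241 through a median of 0.804 to 2.58 FPKM. All 6 delta cell samples lay above all alpha cell samples, and above beta samples 1, 3 and 4, while beta sample 2 lay inside the delta cell range. In the delta cell samples of resolved depth these values stand for about 18.9, 61.6, 54.7 and 54.1 reads in samples 1 to 4. The difference between delta and alpha cells was 1.05 (SE 0.36) and did not pass the test (limma adjusted p = 0.108). It passed without beta sample 2, which is part of the shared estimate of spread (adjusted p = 0.0371), with a pseudocount of 0.1 (0.0165) and with the ribosomal set of the sample as a term (0.0422), and over the alternatives in which Tph2 was tested the adjusted p ranged from 0.0165 to 0.222. It left the test without delta sample 2 and with a filter of 2 FPKM. Tph2 passed the filter of 1 FPKM only through delta cells, so these results lend no added support to a higher level there. Delta against beta cells gave 0.60 (SE 0.38, adjusted p = 0.331), and 1.02 without beta sample 2 (adjusted p = 0.0469). Tph2 shares no run of 50 bases, the read length, with any other annotated gene, Tph1 included.

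Th (chromosome 7, 142892752 to 142931128, minus strand), the rate-limiting enzyme of catecholamine synthesis, was the member with the widest contrast between alpha and beta cells. Alpha samples 1, 2 and 5 were listed at 0, and samples 3 and 4 were at 0.0576 and 0.0303 FPKM. Beta cells were at 5.93, 30.7, 6.89 and 4.61 FPKM in samples 1 to 4. Delta cells ranged from 1.12 through a median of 2.2 to 6.19 FPKM. Every beta and every delta cell sample lay above every alpha cell sample, and beta and delta cells overlapped through delta sample 1. The beta cell mean was 12.0 ± 12.5 FPKM (SD, n = 4), or 5.81 ± 1.15 FPKM (n = 3) without sample 2, and the delta cell mean was 2.65 ± 1.88 FPKM (n = 6). These are bulk samples, in which the number of cells that carry an RNA and the amount in each cell cannot be told apart.

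In the limma fit the difference of Th was 3.29 in beta against alpha cells (SE 0.46, adjusted p = 0.000245) and 1.71 in delta against alpha cells (SE 0.42, adjusted p = 0.0174). It stood lower in delta than in beta cells, at -1.58 (SE 0.44, adjusted p = 0.025). The last call was lost without beta sample 2 (-1.02, adjusted p = 0.0573) and without delta sample 6 (-1.45, adjusted p = 0.0514), and with only the compared cell types in the fit (adjusted p = 0.0571). With the replicate number as a block, the calls in delta against alpha and delta against beta cells were lost, as given at the end. The beta cell hormone gene Ins2 was read in the same samples, and its part in the Th values was not tested. Th in delta cells was at 22.0% of its beta cell mean, where Ins2 in delta cells was at 1.95% of its own. The beta cell mean of Th was 4.54-fold the delta cell mean, and 2.19-fold without beta sample 2. Th in alpha cells was at 0.146%, where Ins2 was at 1.87%. Of 6 markers of sympathetic neurons, which also transcribe Th, Dbh, Prph and Stmn2 were listed at 0 in all samples and Slc6a2 reached at most 0.0556 FPKM. The summed level of the list reached at most 3.52, 7.62 and 2.49 FPKM in alpha, beta and delta cells. Npy made up most of it, at 7.57 FPKM in beta sample 2, the sample with the highest Th, and at up to 3.52 and 2.36 FPKM in alpha and delta cells. The part of these markers in the Th values was not tested.

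The genes whose levels ran most like Th over the 15 samples were Iapp (Pearson r = 0.936), which encodes the beta cell peptide amylin, Ppp1r1a (0.933), an inhibitor of protein phosphatase, and Fam151a (0.932). The correlations describe log2(FPKM + 1) in samples that share cell type and depth. Iapp means were 651, 40951 and 4352 FPKM in alpha, beta and delta cells, so that all 3 had beta cells highest and alpha cells lowest, the order seen for Th. The likeness of Th to Ddc, the next enzyme of the same pathway, was low (r = 0.0706 over 15 samples).

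Ddc (chromosome 11, 11814101 to 11898144, minus strand), the decarboxylase shared by serotonin and dopamine synthesis, was the most abundant member in each cell type. Alpha cells were at 85.5, 94.9, 116, 94.7 and 102 FPKM in samples 1 to 5. Beta cells were at 112, 372, 48.4 and 160 FPKM in samples 1 to 4. Delta cells ranged from 1.42 through a median of 5.43 to 9.20 FPKM. Alpha and beta cells overlapped, and the highest delta cell sample was below the lowest sample of either. By mean level Ddc had rank 626 among all genes of alpha cells, 347 among those of beta cells and 7223 among those of delta cells. The means were 98.6 ± 11.3 FPKM (SD, n = 5), 173 ± 140 FPKM (n = 4) and 5.40 ± 2.75 FPKM (n = 6), so that alpha cells held 18.3-fold and beta cells 32.0-fold the delta cell mean, or 19.7-fold for beta cells without sample 2.

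The differences of Ddc were -4.09 (SE 0.47, limma adjusted p = 2.83e-05) in delta against alpha cells and -4.54 (SE 0.50, adjusted p = 1.5e-05) in delta against beta cells. Both calls held in every alternative, with adjusted p up to 0.00124 and 0.00111. Beta against alpha cells gave 0.45 (SE 0.52) with an adjusted p of 0.651, and -0.04 without beta sample 2, so neither cell type was shown to be higher. Ddc in delta cells was at 5.47% of its alpha and 3.12% of its beta cell mean. The hormone genes Gcg and Ins2 in the same delta cells were at 0.189% and 1.95% of their alpha and beta cell means.

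The oxidases that break monoamines down differed from each other. Maoa (X chromosome, 16619698 to 16687818, plus strand), which prefers serotonin, was at 4.88, 5.42, 6.19, 1.31 and 3.24 FPKM in alpha samples 1 to 5. It was at 1.69, 8.72, 0.452 and 3.23 FPKM in beta samples 1 to 4, and in delta cells it ranged from 1.00 through a median of 2.64 to 2.8 FPKM. The 3 groups overlapped and no comparison was called. The differences were -0.44 (SE 0.48) in beta against alpha cells, -0.60 (SE 0.43) in delta against alpha cells and -0.16 (SE 0.46) in delta against beta cells, with limma adjusted p of 0.616, 0.556 and 0.856. Without beta sample 2 the comparisons with beta cells gave -0.93 against alpha cells (adjusted p = 0.176) and 0.32 for delta against beta cells (0.63). Of the 4118 runs of 50 bases in its transcripts, 164 also occur in other genes, so part of its reads may not have been assigned uniquely.

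Maob lies 21464 bases from Maoa on the same chromosome (16709282 to 16817366, minus strand). Alpha cells were at 27.9, 27.2, 27.6, 22.2 and 35.6 FPKM in samples 1 to 5, and beta cells at 39.3, 107, 21.9 and 56.7 FPKM in samples 1 to 4. Delta cells ranged from 1.03 through a median of 2.43 to 4.88 FPKM. As for Ddc, alpha and beta cells overlapped and all delta cell samples lay below both. The mean in alpha cells was 11-fold and in beta cells 22.0-fold that in delta cells, or 15.3-fold in beta cells without sample 2. Delta cells differed by -3.11 from alpha cells (SE 0.39, limma adjusted p = 6.31e-05) and by -3.88 from beta cells (SE 0.42, adjusted p = 1.12e-05), and both calls held in every alternative. Beta against alpha cells gave 0.77 (SE 0.43, adjusted p = 0.308), and 0.39 without beta sample 2 (adjusted p = 0.564). With median-ratio size factors, which place the samples on a common scale, the difference over all samples was 1.01 and was called (adjusted p = 0.0204).

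**Figure D2:**
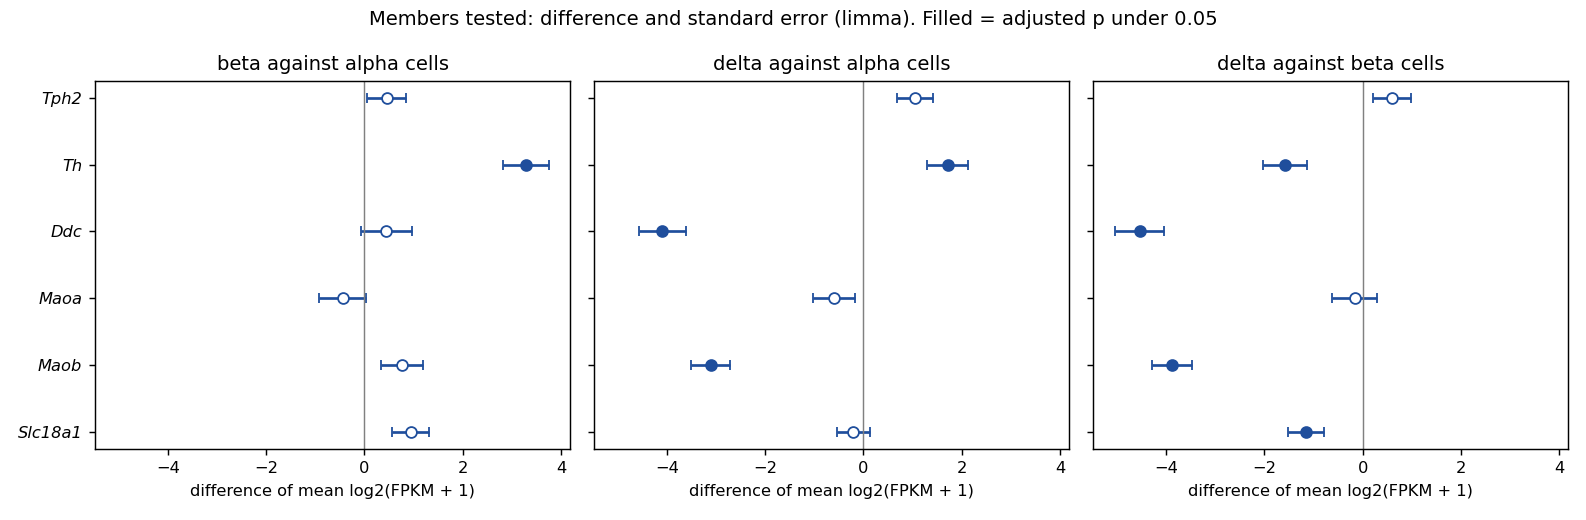
Differences between cell types for the 6 members tested, as differences of mean log2(FPKM + 1) on the horizontal axis with their standard error, and filled points for limma adjusted p under 0.05. Ddc and Maob lie at -4.09 and -3.11 in delta against alpha cells and at -4.54 and -3.88 in delta against beta cells, while only Th is filled in beta against alpha cells.

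Maob supplied most of the summed oxidase FPKM in alpha and beta cells. Its share of Maoa plus Maob was 87.2% ± 5.51 (SD, n = 5) in alpha cells, with a range of 81.7% to 94.4%. In beta cells it was 95.2% ± 2.30 (n = 4), from 92.5% to 98.0%. In delta cells it was 51.3% ± 12.6 (n = 6), from 28.0% to 63.7%. The share, which does not change with the scale of a sample, was lower in all 6 delta cell samples than in any alpha or beta cell sample, and beta sample 2 lay at the low end of the beta cell range. The share shows an unequal change of the pair and not which of them changed.

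**Figure D3:**
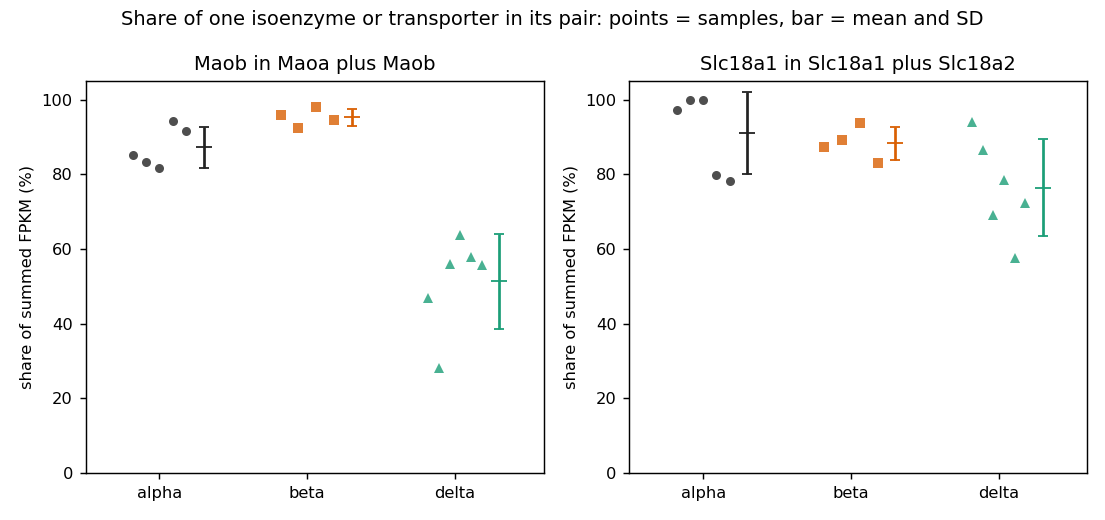
Share of Maob in the summed FPKM of Maoa and Maob, and of Slc18a1 in that of Slc18a1 and Slc18a2, in percent, with 1 point per sample and bars for mean and SD. The Maob share lies between 28.0% and 63.7% in delta cells and above 81% in every alpha and beta cell sample, while the Slc18a1 shares overlap.

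Ddc and Maob ran together over the samples. Their Pearson r was 0.954 over 15 samples, and Maob was the third most similar gene to Ddc of all genes tested. Slc30a8 (0.966), the zinc transporter of insulin granules, and Skap1 (0.954) were the others. The genes most like Maob were Prkd1 (0.974), a protein kinase, Adh1 (0.965), an alcohol dehydrogenase, and Cadps (0.962), a factor for granule exocytosis. All of these had their lowest mean in delta cells. Slc30a8, for example, was at 259 FPKM in alpha, 277 FPKM in beta and 2.35 FPKM in delta cells. The correlations span 3 cell types, and a large part of the points' spread is the gap between delta cells and the rest.

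**Figure D4:**
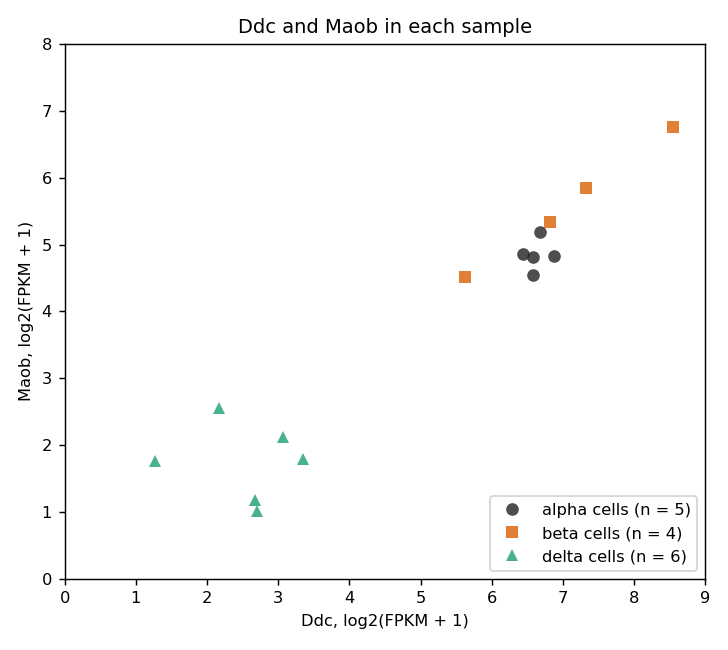
Maob against Ddc in each of the 15 samples, both as log2(FPKM + 1). The delta cell samples (1.42 to 9.20 FPKM of Ddc, 1.03 to 4.88 FPKM of Maob) form a group apart, and beta sample 2 is the highest in both genes (372 and 107 FPKM).

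Both vesicular transporters were low. Slc18a1 (chromosome 8, 69037711 to 69089235, minus strand), the transporter of endocrine cells, was at 2.49, 0.333, 3.65, 0.880 and 1.92 FPKM in alpha samples 1 to 5. It was at 6.51, 3.21, 2.19 and 5.20 FPKM in beta samples 1 to 4, and in delta cells it ranged from 0.802 through a median of 1.33 to 1.83 FPKM. Every beta cell sample lay above every delta cell sample, and alpha cells overlapped with both. Delta against beta cells gave -1.15 (SE 0.36, limma adjusted p = 0.0419). This call was lost without beta sample 1 (adjusted p = 0.142), without beta sample 4 (0.124) or without any one of the 6 delta cell samples (0.0516 to 0.0806), with a pseudocount of 0.1 (0.0662) and with no filter on low values (0.0676). Beta against alpha cells gave 0.94 (SE 0.37, adjusted p = 0.14) and delta against alpha cells -0.21 (SE 0.34, adjusted p = 0.833). Slc18a2 (chromosome 19, 59260896 to 59296012, plus strand), the transporter of monoamine neurons, did not reach a mean of 1 FPKM in any cell type. It was at 0.0682, 0, 0, 0.223 and 0.533 FPKM in alpha samples 1 to 5 and at 0.951, 0.391, 0.143 and 1.06 FPKM in beta samples 1 to 4. Delta cells ranged from 0.114 through a median of 0.377 to 0.592 FPKM, and the 3 groups overlapped. With no filter no comparison called it (limma adjusted p = 0.198, 0.601 and 0.497). An antisense gene, Gm29261, shares 62 of its 5458 runs of 50 bases. The share of Slc18a1 in the pair was 91.1% ± 11.1 (SD, n = 5) in alpha, 88.3% ± 4.48 (n = 4) in beta and 76.4% ± 13.0 (n = 6) in delta cells, with ranges that overlapped.

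Both receptors had means under 1 FPKM in each cell type. Drd2 (chromosome 9, 49340627 to 49408177, plus strand), an inhibitory dopamine receptor, was listed at 0 in all 4 beta cell samples and in alpha samples 1 to 4. Alpha sample 5 was at 0.0326 FPKM, which corresponds to about 2.0 reads. Delta cells ranged from 0 through a median of 0.0774 to 0.911 FPKM, and only sample 6 was above 0.116 FPKM. The values in delta samples 1, 3 and 4 correspond to about 1.99, 4.83 and 4.57 reads. With no filter no comparison called Drd2 (limma adjusted p = 1, 0.487 and 0.365). Htr2b (chromosome 1, 86099026 to 86111970, minus strand), a stimulatory serotonin receptor, was at 0.0401 to 0.766 FPKM in alpha, 0.274 to 1.46 FPKM in beta and 0 to 0.705 FPKM in delta cells. The groups overlapped, and no comparison called it without the filter (limma adjusted p = 0.67, 0.986 and 0.551). Its values are uncertain, because the exons of Psmd1, a proteasome gene on the opposite strand at 23.1 to 35.6 FPKM by cell type, overlap it and share 204 of its 2129 runs of 50 bases, and no source states that strand was used.

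Around the members, 63 other genes of monoamine biology were listed, of which 62 were in the table. Of these, 19 were listed at 0 in all 15 samples and 21 entered the test. In beta against alpha cells 2 of the 21 were called, both lower, and the background was 7.66%. In delta against alpha cells 5 were called (3 higher and 2 lower, background 6.81%), and in delta against beta cells 3 were called, all higher (background 14.7%). Of the 3 higher in delta against alpha cells, Lmx1b entered the test only through its delta cell mean. The median difference of the 21 was -0.50, 0.15 and 0.22 in these comparisons, beside -0.13, 0.13 and 0.30 over all genes tested.

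Cofactor and conversion enzymes were 12 genes, of which 7 were tested. Spr, sepiapterin reductase, which completes the cofactor that both hydroxylases need, was higher in delta cells (8.77 ± 5.04 FPKM, n = 6) than in alpha cells (2.43 ± 0.946, n = 5) by 1.37 (SE 0.39, limma adjusted p = 0.0459) and than in beta cells (1.52 ± 0.884, n = 4) by 1.83 (SE 0.42, adjusted p = 0.00732). All delta cell samples lay above the beta cell samples, but they overlapped with alpha cells. The call against alpha cells was lost in 16 of the alternatives, with adjusted p up to 0.122. Gch1, the first enzyme of the same cofactor pathway, was at 25.7 ± 16.5 FPKM in alpha, 28.4 ± 27.1 FPKM in beta and 15.7 ± 7.62 FPKM in delta cells and was not called. Its beta cell mean without sample 2 was 15.2 FPKM. Dbh and Pnmt, which turn dopamine into noradrenaline and adrenaline, were listed at 0 in all samples. Of 8 further breakdown enzymes 6 were tested and none was called by limma, nor had any an unadjusted p under 0.05.

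Transport across the plasma membrane was represented by 9 genes, of which 3 were tested. Slc29a4, the plasma membrane monoamine transporter, was at 4.95, 1.56, 1.16, 5.54 and 15.2 FPKM in alpha samples 1 to 5 and at 2.43, 3.14, 1.55 and 0.908 FPKM in beta samples 1 to 4. Delta cells ranged from 4.01 through a median of 24.5 to 28.0 FPKM. All delta cell samples were above all beta cell samples, and sample 2 overlapped with alpha cells. The difference of Slc29a4 was 2.79 in delta against beta cells (SE 0.58, limma adjusted p = 0.00395) and 1.96 in delta against alpha cells (SE 0.54, adjusted p = 0.038). The second call was lost in 14 of the alternatives, with adjusted p up to 0.115. Slc3a2, the heavy chain of a transporter for large neutral amino acids, was lower in delta (12.1 ± 4.22 FPKM) than in alpha cells (37.9 ± 9.57 FPKM) by -1.59 (SE 0.35, adjusted p = 0.00848). Beta cells were at 17.6 ± 9.76 FPKM, and the main fit called Slc3a2 in neither comparison with beta cells. Slc6a3, the dopamine transporter of neurons, was listed at 0 in all samples.

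Most receptors of the lists were listed at 0 or at low values. Of 13 further serotonin receptors 7 were listed at 0 in all samples and none was tested, and of 4 histamine receptors 2 were listed at 0 in all samples and none was tested. Taar1, a receptor for trace amines, was the one receptor tested. It had values in all samples, 4.45 ± 2.97 FPKM in alpha, 9.64 ± 7.18 FPKM in beta and 7.30 ± 2.93 FPKM in delta cells, with no limma call (adjusted p = 0.349, 0.545 and 0.86 in beta against alpha, delta against alpha and delta against beta cells).

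Of 12 transcription factors of monoamine neurons 4 were tested. Fev, which specifies serotonin neurons, was at 15.7, 10.7, 6.72, 24.5 and 81.4 FPKM in alpha samples 1 to 5. It was at 0.0825, 0.226, 0 and 0.0357 FPKM in beta samples 1 to 4, and in delta cells it ranged from 17.5 through a median of 26.8 to 41.1 FPKM. Beta cells lay below all samples of both other types, while alpha and delta cells overlapped. The difference of Fev was -4.21 in beta against alpha cells (SE 0.53, limma adjusted p = 8.33e-05) and 4.69 in delta against beta cells (SE 0.51, adjusted p = 1.31e-05), and both calls held in every alternative. Delta against alpha cells gave 0.48 (SE 0.48, adjusted p = 0.688). Nr4a2, a factor of dopamine neurons, was at 8.31 ± 2.32 FPKM in alpha, 2.38 ± 1.82 FPKM in beta and 0.566 ± 0.354 FPKM in delta cells. Its difference was -1.60 (SE 0.37, adjusted p = 0.0143) in beta against alpha and -2.56 (SE 0.33, adjusted p = 8.9e-05) in delta against alpha cells. The call in beta against alpha cells was lost with only the compared cell types in the fit (adjusted p = 0.099). Lmx1b, which acts in both kinds of neuron, was at 0.202 ± 0.107 FPKM in alpha, 0.296 ± 0.148 FPKM in beta and 1.28 ± 0.563 FPKM in delta cells. Its difference in delta against alpha cells was 0.88 (SE 0.25, adjusted p = 0.0394), a call that was lost in 15 of the alternatives. It passed the filter only through delta cells. Beta cells thus held the highest mean of Th and the lowest of Fev.

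**Figure D5:**
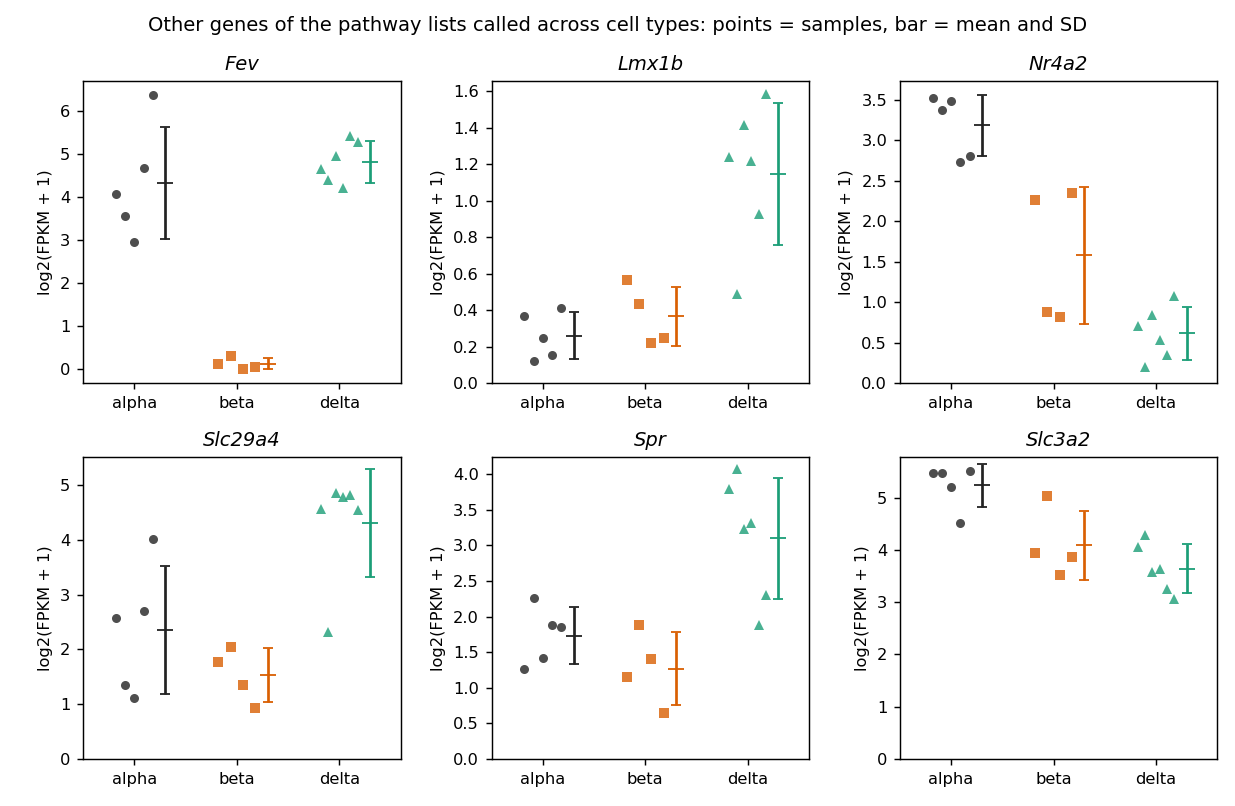
The 6 other pathway genes called in the F-test across cell types, with log2(FPKM + 1) on the vertical axis, 1 point per sample and bars for the mean and SD. Fev is near 0 in the 4 beta cell samples, Nr4a2 is highest in alpha cells, and Slc29a4 is at 22.3 to 28.0 FPKM in 5 of 6 delta cell samples.

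Markers of other cells were read in the same samples. Of 7 markers of mast cells, which make serotonin through Tph1, 6 were listed at 0 in all samples and only Kit had values (1.10 to 4.63 FPKM in alpha cells and at most 0.242 FPKM in the others). The summed level of 5 acinar markers was 19.3 to 425 FPKM in delta cells against 0.0651 to 55.2 FPKM in alpha and 0.0283 to 7.80 FPKM in beta cells, and its part in the values of the members was not tested.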

How the data were processed

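RNA was measured in 15 samples of sorted alpha (n = 5), beta (n = 4) and delta cells (n = 6), grouped by their labels. RNA was amplified with the NuGEN RNAseq v2 system, and single 50 nt reads were aligned to GRCm38. The authors deposited FPKM per gene from Cufflinks 2.2.1 (the submitters' processing notes also name TopHat2 2.0.8). They compared cell types with edgeR on raw counts, which were not used here. Depth per sample was estimated from the steps of low FPKM values and resolved in 6 samples. Amplification before sequencing can change low values most.

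The fit used limma 3.58.1 in R 4.3.3 (lmFit, eBayes with a trend) on log2(FPKM + 1), 1 mean per cell type, all 15 samples, with Benjamini-Hochberg adjustment over 14405 genes. On this scale the changes of low genes are understated. Samples are pools of mice, and p-values measure the spread between these pools. The fit was tested on simulated data. Alternatives were other pseudocounts, filters and scalings, fits of only the cell types compared, no trend, the replicate number as a block, the ribosomal set (whether 86 ribosomal protein genes summed to more than 50000 FPKM) as a term, and leaving out each sample. Descriptions used Python 3.11.15, numpy 2.4.6, pandas 2.3.3 and matplotlib 3.10.9. Coordinates are from GENCODE on GRCm38, where 36341 of the 38283 genes have an entry, and promoters are from RefSeq.

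The members, the pathway and marker lists and the ribosomal limit were chosen with earlier results of these data known. Named were all members, tested genes of the pathway lists, genes listed at 0 in all samples as examples, and the 3 tested genes with the highest r to each member called in the F-test. Of the tested genes of those lists, 1 is left out of the text.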

Additional observations from a re-analysis of the deposited data

Results flagged for a closer look

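Single samples far from the rest of their group were looked for in 45 groups of 4 to 6 samples, by the gap to the nearest sample relative to the range (Dixon's 95% limit). For normal values about 1 in 20 groups, or 2.25 of 45, would be picked by chance, and 9 were. FPKM values need not be normal, some groups were mostly listed at 0, and the groups share samples. The 9 are therefore no evidence of an excess. Beta sample 2 was far above the other beta cell samples in Tph1 (2.43 FPKM against 0 to 0.397), Tph2 (2.30 FPKM against 0 to 0.0430) and Th (30.7 FPKM against 4.61 to 6.89). This sample also had the largest size factor (1.714) and the highest Gcg of the beta cell samples (1817 FPKM against 166 to 299), and their part in its monoamine values was not tested. Delta sample 1 was the highest delta cell sample in Th (6.19 FPKM against 1.12 to 2.99). Drd2 stood out in alpha sample 5 (0.0326 FPKM, about 2.0 reads, with the other alpha cell samples listed at 0) and in delta sample 6 (0.911 FPKM against 0 to 0.116). Beta sample 3 was the highest in Htr2b (1.46 FPKM against 0.274 to 0.379), a gene whose exons overlap Psmd1. Among the pathway genes, alpha sample 5 was the highest in Fev (81.4 FPKM against 6.72 to 24.5) and delta sample 2 the lowest in Slc29a4 (4.01 FPKM against 22.3 to 28.0).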

How the results depend on the processing

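The calls of Ddc and Maob in delta against alpha and delta against beta cells, of Th in beta against alpha cells and of Fev in both comparisons with beta cells held in every alternative run. Members called in beta against alpha cells rose from 1 to 2 with median-ratio size factors, through Maob. All genes called in that comparison numbered 1104, and 2072 with size factors, 1970 with quantile normalization, 407 with only the cell types compared in the fit and 651 to 1698 when 1 sample was left out (1698 without beta sample 2, 702 without alpha sample 2, 696 without beta sample 1 and 651 without beta sample 4). Higher and lower calls in beta against alpha cells were 409 and 695, and 1091 and 981 with size factors; in delta against beta cells they were 1683 and 431, and 1379 and 1297. The median difference over all genes was -0.13, 0.13 and 0.30 in beta against alpha, delta against alpha and delta against beta cells, and 0.00, 0.00 and 0.02 with size factors. Leaving out 1 sample gave 2 to 4 members called in delta against beta cells, 2 without delta sample 6 (Ddc and Maob). Ddc in beta against alpha cells ranged from -0.041 (without beta sample 2) to 0.93, and Maoa in delta against beta cells from -0.59 to 0.32 (without beta sample 2), and Slc18a1 in delta against alpha cells from -0.45 to 0.0020 (without alpha sample 3). The causes were not tested.

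Same-numbered samples did not deviate together in every pair (mean r of deviations 0.0762 over 13 pairs, from -0.152 to 0.281, against a mean of -0.0161 for pairs of different number). The pairs numbered 2 (0.268 to 0.281) and the pair numbered 5 (0.253) did. Pairs of different number ranged from -0.352 (alpha sample 4 and beta sample 2, of different ribosomal sets) to 0.339 (alpha sample 4 and delta sample 6, of the same set). The numbers were therefore not taken to pair samples. With the replicate number as a block, 2 members instead of 4 were called in delta against beta cells, Th there had an adjusted p of 0.105 and Slc18a1 of 0.105, Th in delta against alpha cells 0.0564 and Tph2 in delta against alpha cells 0.0436. The difference of Maoa in delta against beta cells was then 0.041 instead of -0.16, with no call (adjusted p = 0.97). All genes called were then 1227, 831 and 2001 in the 3 comparisons. Of all single values under alternatives, 840 stayed the same, 62 lost and 19 gained a call, and 4 changed sign, none of them called. Staying the same meant keeping direction and side of the threshold or, for the Maob and Slc18a1 shares, lying within the SD of the main value. Unknown depth in 9 samples limits what the lowest values of Tph1, Tph2, Slc18a2, Drd2 and Htr2b can show.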
